A study of Mus musculus with 82 samples.

Results

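The genes described here encode the enzymes of purine synthesis and the proteins that take up and phosphorylate AICAR: Atic, Adk, Paics, Pfas, Ppat, Gart, Adsl, Impdh1, Impdh2 and Slc29a1. They were chosen by name, from the pathway that AICAR enters, and every probe set annotated to 1 of these symbols alone was taken. Of the 10 genes, 9 had such a probe set, 22 probe sets in all, out of 18193 genes and 45037 probe sets on the array. Adk had 6 probe sets, Gart 4, Paics and Ppat 3 each and Atic 2, and Pfas, Adsl, Impdh1 and Slc29a1 had 1 each. Impdh2 was not analysed here. Where a gene had several probe sets, the brightest on average in a cell type is called its leading probe set. The leading probe set was the same in both cell types for each of the 9 genes.

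RNA was measured on 82 Affymetrix arrays of C57BL/6 mouse cells, either mouse embryonic fibroblasts (MEFs, 23 arrays) or primary hepatocytes (59 arrays). Cells were wild type (WT) or carried AMPK alpha1-/- alpha2-/- (dKO), the deletion of both catalytic subunits of AMPK, and were treated for 4 h with the DMSO vehicle, with 991, a small-molecule AMPK activator, or with AICAR. MEFs received 10 µM 991 or 2 mM AICAR, with 4 arrays in each group except WT with 991, which had 3. Hepatocytes received 3 µM 991 or 300 µM AICAR, with 10 arrays in each group, 5 technical replicates of each of 2 cell preparations, except dKO with vehicle, which had 9. The MEF arrays were all technical replicates, so the p-values in MEFs measure the spread between these arrays only and not that between cultures. The hepatocytes were isolated by collagenase perfusion and cultured overnight with dexamethasone before treatment. Hepatocyte values were averaged within a preparation, so that n is 2 preparations. The study compared the compounds with vehicle in each genotype to separate responses that need AMPK from those that do not. Values are log2 intensities throughout, a difference is the log2 level of the first group minus that of the second, and a probe set is called at an adjusted p under 0.05 (limma, Benjamini-Hochberg over all 45037 probe sets).

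Purine nucleotides are built on a ribose phosphate in a chain of reactions that ends in IMP, from which AMP and GMP are made. AICAR is the nucleoside of an intermediate of that chain, ZMP: cells take it up through nucleoside carriers such as SLC29A1 (ENT1), adenosine kinase (ADK) phosphorylates it to ZMP, and ZMP resembles AMP closely enough to activate AMPK. The bifunctional enzyme ATIC then converts ZMP to IMP, and liver is a main site of purine synthesis.

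Ppat and Paics encode the first enzyme of the chain and a later bifunctional one, and they are neighbours on opposite strands of chromosome 5. Their annotated start sites lie 276 bases apart. Read along the strand of either gene, its own start site comes before that of the other gene. Their leading probe sets both rose after AICAR in MEFs of both genotypes, and for that reason their promoters are shown. The leading probe set of Gart rose in both genotypes too, and in WT MEFs no other probe set of Ppat or Paics was called. The windows run from 250 bases before to 50 bases after the start site on the strand of the gene (RefSeq, GRCm38.p6, 300 bases each). Paics lies at chr5:76951052-76951351 on the + strand and Ppat at chr5:76951529-76951828 on the - strand. Capitals mark every CACGTG (E-box), CCAAT and GGGCGG (GC box) found on either strand.
Paics: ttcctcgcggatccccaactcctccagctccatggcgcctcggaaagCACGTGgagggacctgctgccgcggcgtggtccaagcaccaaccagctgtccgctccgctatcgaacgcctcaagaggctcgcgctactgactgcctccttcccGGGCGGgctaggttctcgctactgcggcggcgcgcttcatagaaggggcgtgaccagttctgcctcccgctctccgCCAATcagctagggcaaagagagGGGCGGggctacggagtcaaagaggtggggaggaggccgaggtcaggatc
Ppat: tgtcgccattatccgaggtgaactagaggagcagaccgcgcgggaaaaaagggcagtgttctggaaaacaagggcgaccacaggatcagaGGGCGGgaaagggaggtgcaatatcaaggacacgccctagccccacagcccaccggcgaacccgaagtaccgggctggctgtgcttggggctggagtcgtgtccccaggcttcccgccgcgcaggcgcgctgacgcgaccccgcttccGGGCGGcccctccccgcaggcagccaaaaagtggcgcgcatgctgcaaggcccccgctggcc
The Paics window held a CACGTG at -203, a CCAAT at -23 and GGGCGG at -99 and at 1, counted from the start site. The Ppat window held GGGCGG at -160 and -12, and neither CACGTG nor CCAAT. Of 32851 promoter windows of this length, 7.15% held CACGTG, 37.4% CCAAT and 35.7% GGGCGG. Neither window held TGACGTCA (1.79% of all windows) or TTGCATCA (0.895%). Of the 10 genes, 9 were in the promoter table, and CACGTG was also found for Atic, for Impdh2 and at 1 of 8 start sites of Slc29a1. The shared letters describe the sequences only.

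The markers fixed for the labelled cell types were at high levels in hepatocytes and mixed in MEFs. Alb averaged 14.77 in hepatocytes and 5.25 in MEFs, and Col1a1 averaged 11.96 in MEFs and 5.19 in hepatocytes. None of 9 hepatocyte markers was below the median level of the array in hepatocytes, but 5 of 10 fibroblast markers were below it in MEFs. Fn1, a fibronectin gene on the fibroblast list, was no lower in hepatocytes (13.15) than in MEFs (12.71), and Krt19, a keratin on the cholangiocyte list, averaged 9.74 in MEFs and 5.33 in hepatocytes. Array medians ranged from 6.16 to 6.25 in MEFs and from 5.88 to 6.08 in hepatocytes, each array correlated with the mean of its group at 0.997 or above, and no arrays were identical. In dKO against WT vehicle arrays the Prkaa1 probe set differed by -1.11 ± 0.09 (SE; adjusted p = 0.173) in hepatocytes and by -0.09 ± 0.10 (adjusted p = 0.54) in MEFs. Prkaa2 differed by -0.32 ± 0.08 (adjusted p = 0.00134) in MEFs and by -0.10 ± 0.08 (adjusted p = 0.935) in hepatocytes. The sources used here do not place these probe sets relative to the deleted sequence, so they do not check the labels. Precision is limited by how many arrays and preparations there were.

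AICAR changed the leading probe sets of several purine genes in MEFs, mostly upwards and by small amounts. In WT MEFs 4 of the 9 genes were higher and none lower, against 34.2% of all 18193 genes called, and the median of the 9 was 0.02 against -0.01 for all genes. In dKO MEFs 4 were higher and 2 lower, against 39.8% of all genes called, with a median of 0.05 against -0.02. In hepatocytes 1 gene rose and 1 fell in each genotype, against 16.5% of all genes in WT and 18.0% in dKO, and 5 of the 22 probe sets were called in each, against 18.2% and 20.8% of all probe sets. The medians of the 9 were -0.02 in both, against 0.04 for all genes. The count in WT MEFs (4 of 9) and those in hepatocytes (2 of 9 in each genotype) were near the share of the array, and that in dKO MEFs (6 of 9) was above it, but was 4 of 9 under quantile normalization and without dKO AICAR replicate 1. In the same MEF arrays 5 of 10 fibroblast markers fell after AICAR in WT (median -0.16, mean per array from 8.87 to 8.97 with vehicle and from 8.67 to 8.75 with AICAR). In dKO 5 fell and 2 rose (median -0.11, from 7.50 to 7.56 and from 7.33 to 7.48). Of 4 cholangiocyte markers 2 fell in WT and 0 changed in dKO by limma, with 0 at an unadjusted p under 0.05. The part of these markers in the MEF results was not tested. The comparisons of AICAR and of 991 with vehicle share the vehicle arrays of a genotype.

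**Figure D1:**
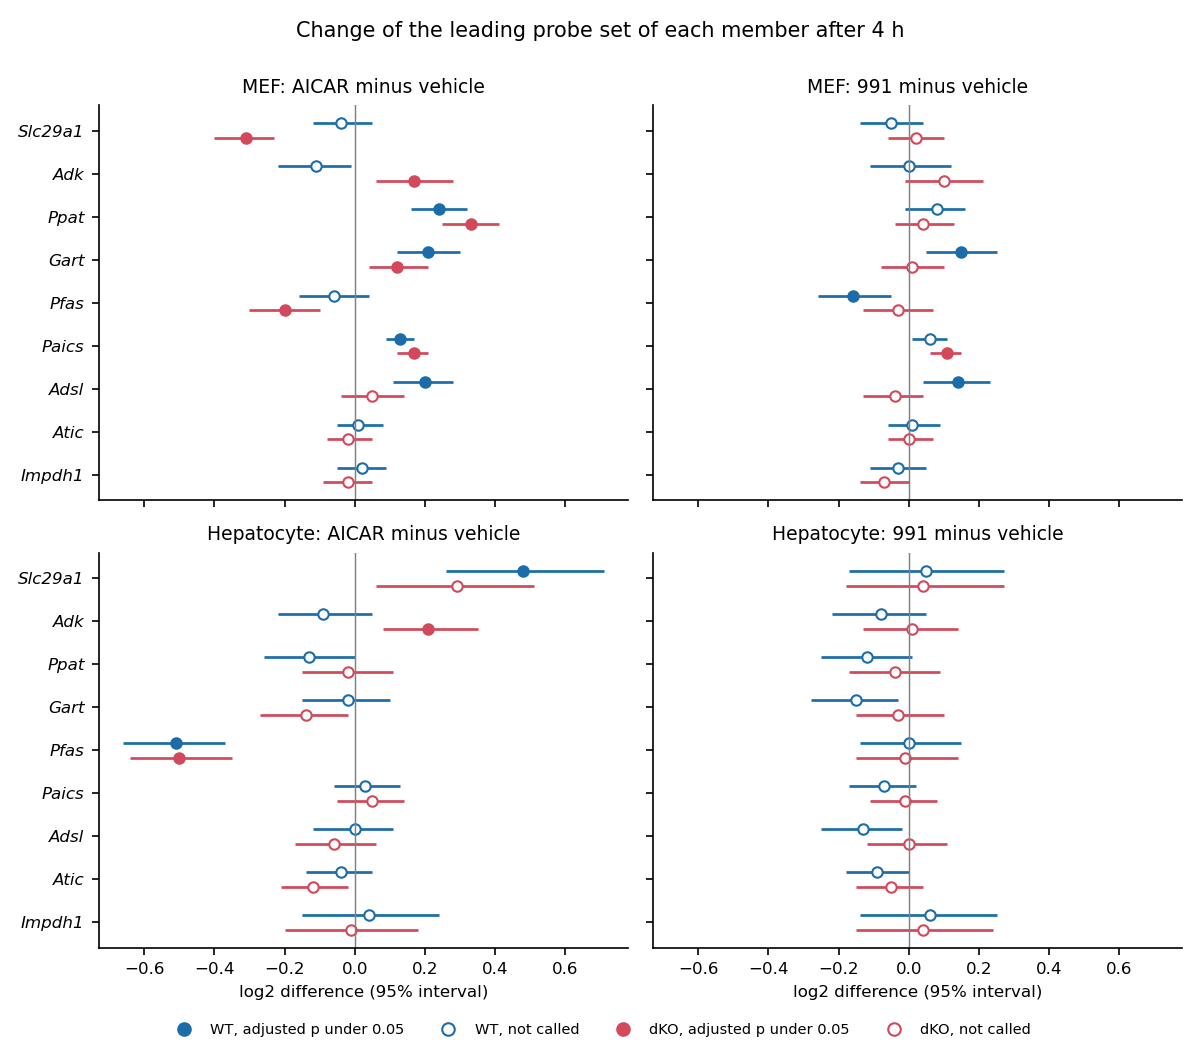
Log2 difference from vehicle (horizontal axis, with 95% interval) of the leading probe set of each of the 9 genes, in MEFs (top) and hepatocytes (bottom), after AICAR (left) and 991 (right), with WT in blue, dKO in red and filled points for an adjusted p under 0.05. Ppat and Paics lie to the right of 0 after AICAR in MEFs of both genotypes, and Pfas lies near -0.5 after AICAR in hepatocytes of both genotypes.

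Slc29a1 encodes ENT1, the equilibrative carrier that brings adenosine and AICAR into cells. In dKO MEFs its levels were 10.42, 10.43, 10.40 and 10.29 with vehicle and 10.06, 10.08, 10.12 and 10.03 with AICAR. All AICAR arrays lay below all vehicle arrays, and the level fell by 0.31 on the log2 scale (SE 0.04; adjusted p = 1.66e-07), a 1.24-fold decrease. In WT MEFs the vehicle arrays read 10.53, 10.66, 10.64 and 10.58 and the AICAR arrays 10.49, 10.58, 10.60 and 10.57, which overlap. The WT difference was -0.04 ± 0.04 (adjusted p = 0.541), with a 95% interval of -0.12 to 0.05. The effects in the 2 genotypes differed by 0.28 ± 0.06 (WT minus dKO; adjusted p = 0.00149), in a comparison in which 10.9% of all genes were called. Slc29a1 had 1 probe set, so taking the mean of its probe sets, or another leading one, reuses the same values. In the 6 other alternative settings this genotype difference was called, and also without each of the 23 arrays. The difference was then 0.25 to 0.31 (adjusted p from 0.00024 to 0.0107). Leaving out an array of a group outside this comparison cannot change the difference.

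In hepatocytes, which received another dose, mean Slc29a1 levels were higher with AICAR in both genotypes, and the rise was called in WT only. The fall in MEFs was called in dKO only, and the cell types were not tested against each other. WT arrays ranged from 8.91 to 9.16 (median 8.99) with vehicle and from 9.17 to 9.92 (median 9.43) with AICAR, and dKO arrays from 8.98 to 9.21 (median 9.10) and from 9.07 to 9.59 (median 9.40). The WT groups did not overlap, whereas the dKO groups did. The preparations differed in size: in WT the change was 0.69 in preparation 1 and 0.28 in preparation 2, and in dKO it was 0.15 and 0.42. Slc29a1 rose by 0.48 ± 0.10 in WT (adjusted p = 0.00678), a 1.40-fold increase, and the dKO difference was 0.29 ± 0.10 (adjusted p = 0.0701). The effects were not shown to differ between the genotypes (0.20 ± 0.14; adjusted p = 0.66; 95% interval -0.12 to 0.51). Without WT preparation 1 the WT difference was 0.28 and no longer called (adjusted p = 0.11; range over the alternatives 3.51e-13 to 0.11).

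Endothelial markers, a cell type that also carries ENT1, moved in the same arrays. Of 8 such markers 3 rose after AICAR in WT hepatocytes (Stab2 by 0.69, Cdh5 by 0.43, Tek by 0.41) and 4 in dKO (Stab2 by 0.49, Cdh5 by 0.45, Tek by 0.40, Lyve1 by 0.30). Their mean per array ranged from 6.55 to 6.83 with vehicle and from 6.84 to 7.18 with AICAR in WT, and from 6.64 to 6.92 and from 6.90 to 7.23 in dKO. In both cases 2 of the 8 were below the median level of the array. Of 10 Kupffer cell and macrophage markers 1 rose in WT and 6 in dKO, and of 9 hepatocyte markers 5 rose in each. Of 4 stellate cell markers 2 rose in WT and 1 in dKO, of 4 cholangiocyte markers 1 fell in each, and of 10 fibroblast markers 1 rose in WT and 2 in dKO. None of 5 lymphocyte and erythroid markers was called by limma in either genotype, with 2 at an unadjusted p under 0.05 in each. The part of these markers in the Slc29a1 and other hepatocyte results was not tested, and in such bulk samples fewer cells of a type and less RNA per cell cannot be told apart.

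**Figure D2:**
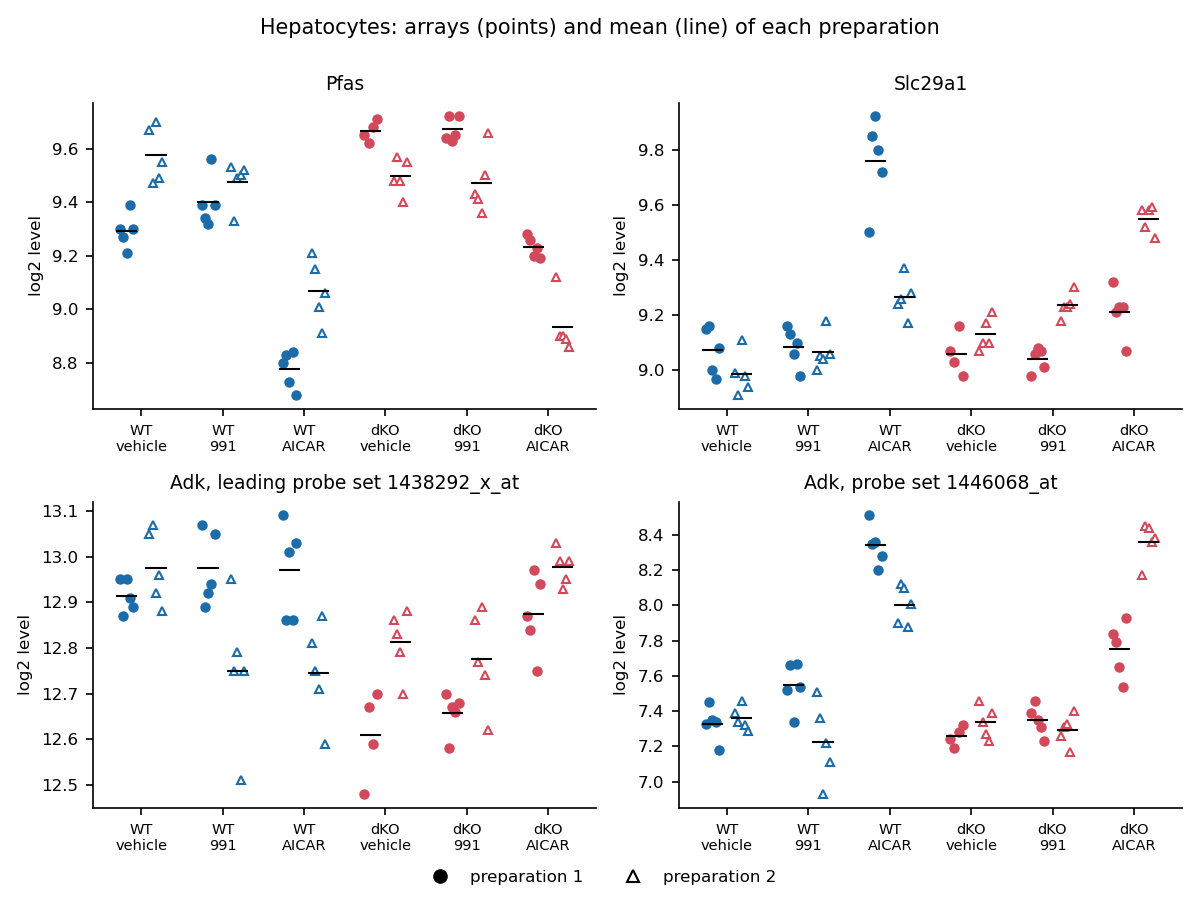
Log2 levels (vertical axis) on each hepatocyte array of Pfas, Slc29a1 and 2 probe sets of Adk, by genotype and treatment, with circles for preparation 1, triangles for preparation 2 and a line at each preparation's mean. Pfas is lower in both preparations with AICAR, and Slc29a1 rises more in WT preparation 1 (by 0.69) than in preparation 2 (by 0.28).

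Adk encodes adenosine kinase, the enzyme that turns AICAR into ZMP, and its probe sets did not move together. The leading probe set, 1438292_x_at, carries the suffix of probe sets whose probes may hybridise to other transcripts. In dKO MEFs it read 11.51, 11.42, 11.43 and 11.71 with vehicle and 11.80, 11.63, 11.68 and 11.64 with AICAR, with the highest vehicle array inside the AICAR range. It rose by 0.17 ± 0.05 in dKO (adjusted p = 0.0102). In WT MEFs the vehicle arrays read 11.85, 11.81, 11.70 and 11.85 and the AICAR arrays 11.75, 11.64, 11.67 and 11.69, and the groups overlapped (-0.11 ± 0.05; adjusted p = 0.102). The genotype difference in the effect was -0.28 ± 0.07 (WT minus dKO; adjusted p = 0.012). The dKO call was lost without dKO AICAR replicate 1 (0.13; adjusted p = 0.0609), dKO vehicle replicate 2 (0.14; adjusted p = 0.0561) or dKO vehicle replicate 3 (0.14; adjusted p = 0.053). Its adjusted p for this probe set ranged from 0.000264 to 0.0794 over the alternatives. Among all 22 probe sets the effect of AICAR differed between genotypes for 5, against 9.37% of all probe sets. With the next brightest Adk probe set, 1416319_at, which has no x suffix, the effects were 0.02 ± 0.04 (adjusted p = 0.805) in WT and 0.08 ± 0.04 (adjusted p = 0.117) in dKO, and their difference was -0.06 ± 0.06 (adjusted p = 0.606). For the leading probe set the adjusted p of the difference ranged from 0.00067 to 0.0588 over the alternatives.

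The largest change of any of the 22 probe sets after AICAR was in the Adk probe set 1446068_at, in both cell types. By mean level the leading Adk probe set was at percentile 96.6 of all probe sets in MEFs and 99.0 in hepatocytes, whereas 1446068_at was at 58.3 and 71.6. It read, in WT MEFs, 6.41, 6.75, 6.54 and 6.87 with vehicle and 7.07, 7.52, 7.33 and 7.30 with AICAR, and in dKO MEFs 6.31, 6.31, 6.36 and 6.39 with vehicle and 7.51, 7.31, 7.32 and 7.02 with AICAR. The groups did not overlap in either genotype. The rise was 0.66 ± 0.10 in WT (adjusted p = 1.73e-06) and 0.94 ± 0.10 in dKO (adjusted p = 1.53e-09), and these effects were not shown to differ (-0.28 ± 0.14; adjusted p = 0.241). In hepatocytes it ranged from 7.18 to 7.46 (median 7.34) with vehicle and from 7.88 to 8.51 (median 8.16) with AICAR in WT. In dKO it ranged from 7.19 to 7.46 (median 7.28) and from 7.54 to 8.45 (median 8.05), again without overlap. It rose by 0.83 ± 0.14 in WT (adjusted p = 0.00165) and by 0.76 ± 0.14 in dKO (adjusted p = 0.00217). By preparation the rise was 1.01 and 0.64 in WT and 0.49 and 1.02 in dKO. Without WT preparation 1 the WT rise of 0.64 was not called, and the adjusted p over the alternatives ranged from 3.46e-16 to 0.0811. After 991 it was not called in either cell type, and in WT it was higher with AICAR than with 991 by 0.47 ± 0.10 (adjusted p = 0.000689) in MEFs and by 0.79 ± 0.14 (adjusted p = 0.00181) in hepatocytes.

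Another Adk probe set, 1449641_at, at percentile 43.3 in MEFs and 71.4 in hepatocytes, also rose after AICAR. In WT MEFs it read 5.71, 5.73, 5.57 and 5.61 with vehicle and 6.23, 6.21, 6.23 and 6.04 with AICAR, and in dKO 5.55, 5.47, 5.48 and 5.56 against 6.32, 6.28, 6.40 and 6.14. Again no array of one group reached the other. The rise was 0.52 ± 0.08 in WT MEFs and 0.77 ± 0.08 in dKO MEFs (adjusted p = 5.02e-06 and 2.74e-09). In hepatocytes it was called in dKO (0.35 ± 0.08; adjusted p = 0.00844) and not in WT (0.23 ± 0.08; adjusted p = 0.0736). The dKO call was lost without either dKO preparation (adjusted p over the alternatives 9.74e-09 to 0.406). The brighter 1416319_at was called higher in dKO hepatocytes (0.17 ± 0.04; adjusted p = 0.00634), and so was the leading probe set (0.21 ± 0.06; adjusted p = 0.0271). Both of these calls were lost without either dKO preparation, the leading probe set at 0.16 (adjusted p = 0.367) without the first and 0.26 (adjusted p = 0.09) without the second, in a range of 3.45e-05 to 0.367. The leading probe set did not change detectably in WT hepatocytes (-0.09; adjusted p = 0.357; by preparation 0.06 and -0.23). The remaining Adk probe sets, 1421767_at and 1446675_at, were not called after AICAR in either cell type. Which Adk transcripts or regions the probe sets match was not analysed here.

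**Figure D3:**
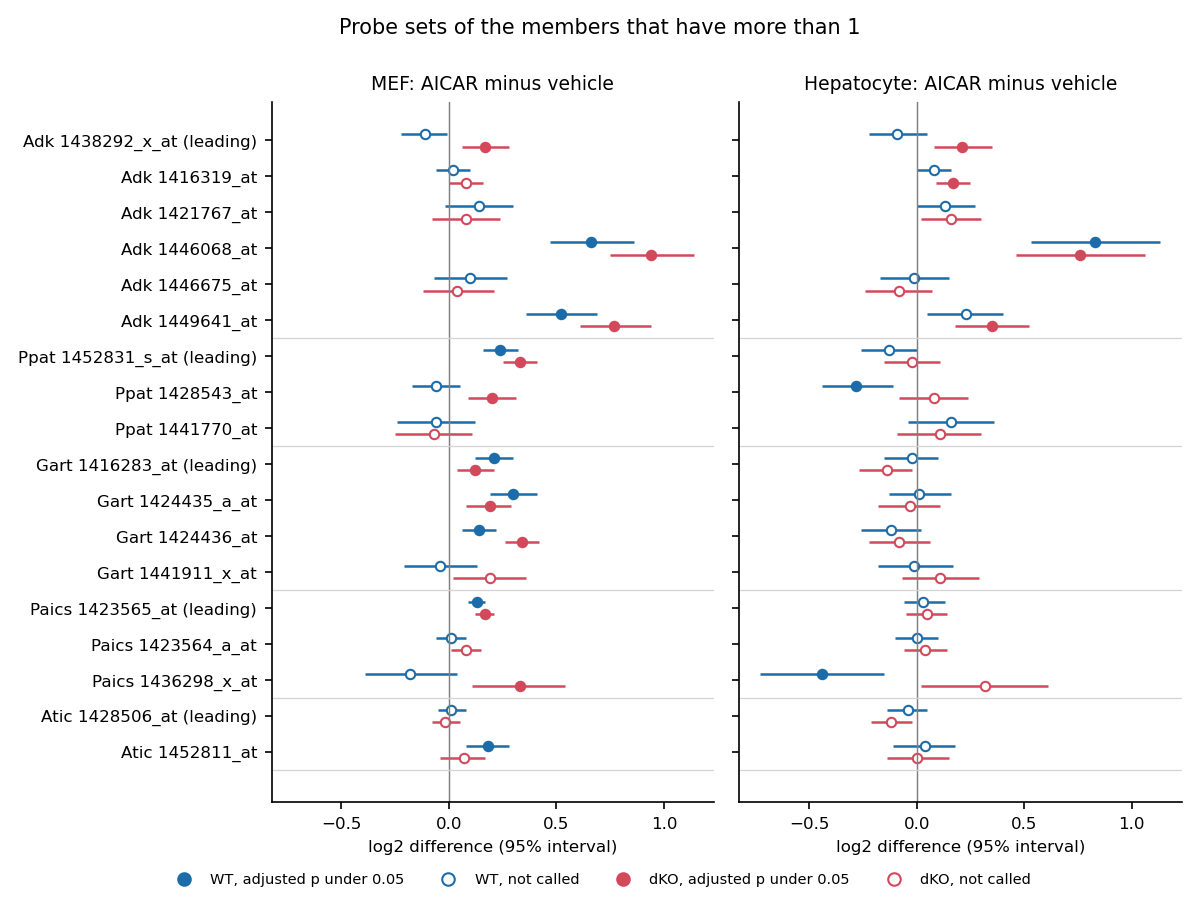
Log2 difference between AICAR and vehicle (horizontal axis, with 95% interval) for every probe set of the 5 genes that have more than 1, in MEFs (left) and hepatocytes (right), with WT in blue, dKO in red and filled points for an adjusted p under 0.05. Adk 1446068_at lies farthest to the right in both cell types, between 0.66 and 0.94, while the leading Adk probe set lies between -0.11 and 0.21.

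Ppat encodes the amidophosphoribosyltransferase, which catalyses the first committed step of purine synthesis. Its leading probe set, 1452831_s_at, has the suffix of probe sets that match transcripts of several genes. The WT MEF arrays read 9.16, 9.32, 9.26 and 9.22 with vehicle and 9.46, 9.44, 9.50 and 9.51 with AICAR. In dKO MEFs it read 9.49, 9.41, 9.45 and 9.43 with vehicle and 9.76, 9.85, 9.72 and 9.76 with AICAR. All AICAR arrays were above all vehicle arrays of their genotype. Ppat rose by 0.24 ± 0.04 in WT (1.18-fold; adjusted p = 1.65e-05) and by 0.33 ± 0.04 in dKO (1.26-fold; adjusted p = 4.06e-08). The second probe set, 1428543_at, gave another picture: after AICAR it differed by -0.06 ± 0.05 (adjusted p = 0.452) in WT and rose by 0.20 ± 0.05 (adjusted p = 0.00271) in dKO. Its effects differed between the genotypes (-0.26, WT minus dKO; adjusted p = 0.0244; range over the alternatives 0.00541 to 0.067). The third, 1441770_at, was not called in either genotype. With all probe sets averaged, the WT difference of Ppat was 0.04 and not called (adjusted p = 0.478; range over the alternatives 5.21e-06 to 0.478).

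In hepatocytes Ppat was not called after AICAR by the leading probe set. WT arrays ranged from 8.05 to 8.49 (median 8.35) with vehicle and from 8.04 to 8.31 (median 8.19) with AICAR, and dKO arrays from 8.38 to 8.53 (median 8.48) and from 8.32 to 8.60 (median 8.44). The groups overlapped in both genotypes. The second probe set fell by 0.28 on the log2 scale in WT hepatocytes (SE 0.07; adjusted p = 0.024), by 0.14 in preparation 1 and by 0.41 in preparation 2. This call was lost without WT preparation 2, and the adjusted p over the alternatives ranged from 1.42e-07 to 0.378.

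Gart encodes a trifunctional enzyme that acts at several steps of the chain and uses a folate-bound one-carbon unit. In WT MEFs it read 9.94, 10.23, 10.09 and 10.05 with vehicle and 10.21, 10.36, 10.31 and 10.28 with AICAR, in dKO 10.21, 10.24, 10.23 and 10.18 with vehicle and 10.36, 10.35, 10.36 and 10.28 with AICAR. The WT groups overlapped by 1 vehicle array, and the dKO groups did not overlap. Gart rose by 0.21 ± 0.04 in WT (1.16-fold; adjusted p = 0.000216) and by 0.12 ± 0.04 in dKO (adjusted p = 0.0233). The dKO call was lost without any of dKO AICAR replicates 1, 2 and 3 (0.12 each; adjusted p = 0.0561, 0.0539 and 0.0611) or dKO vehicle replicate 4 (0.11; adjusted p = 0.0662), and the range over the alternatives was 3.07e-05 to 0.427. Of its other probe sets, 1424435_a_at rose by 0.30 ± 0.05 in WT and 0.19 ± 0.05 in dKO, and 1424436_at by 0.14 ± 0.04 and 0.34 ± 0.04. For 1424436_at the rise was smaller in WT than in dKO (-0.19 ± 0.06; adjusted p = 0.0242), whereas the leading probe set showed no such difference beyond its error (0.09). In hepatocytes no Gart probe set was called after AICAR. The leading probe set ranged there from 9.51 to 9.87 with vehicle and 9.48 to 9.86 with AICAR in WT, and from 9.65 to 10.04 and 9.58 to 9.84 in dKO, with wide overlap.

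Pfas encodes the phosphoribosylformylglycinamidine synthase, which follows the first GART steps, and its leading probe set gave the largest fall of the 9 after AICAR. In hepatocytes the WT arrays ranged from 9.21 to 9.70 (median 9.43) with vehicle and from 8.68 to 9.21 (median 8.87) with AICAR. The dKO arrays ranged from 9.40 to 9.71 (median 9.57) and from 8.86 to 9.28 (median 9.15). The dKO groups did not overlap and the WT groups met at 9.21. Pfas fell by 0.51 on the log2 scale in WT (SE 0.07; adjusted p = 0.000302), a 1.43-fold decrease, and by 0.50 in dKO (SE 0.07; adjusted p = 0.000241), a 1.41-fold decrease. The preparations gave -0.52 and -0.51 in WT and -0.43 and -0.56 in dKO. The effects in the genotypes differed by -0.01, with a 95% interval of -0.22 to 0.19. Without the preparation term the WT call was just missed (adjusted p = 0.0543; range over the alternatives 4.38e-18 to 0.0543).

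In dKO MEFs Pfas read 10.61, 10.61, 10.55 and 10.56 with vehicle and 10.44, 10.36, 10.36 and 10.38 with AICAR. These groups did not overlap, and Pfas fell by 0.20 on the log2 scale (SE 0.05; adjusted p = 0.00154), a 1.15-fold decrease. In WT MEFs it read 10.45, 10.37, 10.60 and 10.51 with vehicle and 10.52, 10.25, 10.42 and 10.51 with AICAR, and the groups overlapped (-0.06 ± 0.05; adjusted p = 0.418). The effects were not shown to differ between the genotypes (0.14; adjusted p = 0.253; 95% interval of -0.0 to 0.28).

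Paics encodes a bifunctional carboxylase and SAICAR synthase. The leading probe set read, in WT MEFs, 12.92, 12.97, 12.95 and 12.96 with vehicle and 13.05, 13.09, 13.08 and 13.10 with AICAR, and in dKO MEFs 12.82, 12.85, 12.86 and 12.84 with vehicle and 13.02, 12.99, 13.03 and 13.01 with AICAR. The arrays of a group lay close together, and no AICAR array reached the vehicle range of its genotype. Paics rose by 0.13 ± 0.02 in WT (1.09-fold; adjusted p = 1.57e-05) and by 0.17 ± 0.02 in dKO (adjusted p = 1.57e-07). Its second probe set, 1423564_a_at, was not called in WT (0.01; adjusted p = 0.884) or dKO (0.08; adjusted p = 0.0718). The third, 1436298_x_at, with an x suffix, differed by -0.18 ± 0.11 in WT (adjusted p = 0.235) and rose by 0.33 ± 0.11 in dKO (adjusted p = 0.0161). The effects on this probe set differed between the genotypes (-0.5, WT minus dKO; adjusted p = 0.0331; range over the alternatives 0.00595 to 0.103). With all its probe sets averaged, the WT difference of Paics was -0.01 (adjusted p = 0.882; range over the alternatives 5.35e-06 to 0.882). In hepatocytes the leading probe set was not called after AICAR, with group means from 11.81 to 11.98 over all 6 groups. There 1436298_x_at fell by 0.44 on the log2 scale in WT (SE 0.13; adjusted p = 0.0421), a call that was lost without WT preparation 2 or either dKO preparation (range over the alternatives 8.49e-05 to 0.507).

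The probe sets Adk 1438292_x_at, Paics 1436298_x_at and Ppat 1428543_at varied together across arrays. They were picked out after their values were seen. Over the 23 MEF arrays the Adk set correlated with the Paics set at r = 0.88 and with the Ppat set at r = 0.86, and the Paics and Ppat sets at r = 0.78. Over the 59 hepatocyte arrays these values were 0.76, 0.32 and 0.66. Ppat 1428543_at correlated with its own gene's leading probe set at -0.43 in MEFs and 0.40 in hepatocytes, and Paics 1436298_x_at with its leading set at 0.31 and 0.24. For comparison, the leading Gart set and Gart 1424435_a_at correlated at 0.91 in MEFs. The arrays share groups and technical replicates, so these correlations are a description.

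Adsl encodes adenylosuccinate lyase, which acts both before AICAR ribotide is formed and in the branch to AMP. Its WT MEF arrays read 10.40, 10.56, 10.46 and 10.51 with vehicle and 10.61, 10.71, 10.69 and 10.70 with AICAR, and in dKO MEFs 10.50, 10.54, 10.50 and 10.40 against 10.52, 10.52, 10.60 and 10.50. The WT groups did not overlap, and the dKO groups did. Adsl rose by 0.20 ± 0.04 in WT (1.15-fold; adjusted p = 0.000389), and the dKO difference was 0.05 (adjusted p = 0.398). The effects were not shown to differ between the genotypes (0.15; adjusted p = 0.131). In hepatocytes Adsl was not called after AICAR, with group means of 9.34 and 9.34 in WT and 9.42 and 9.36 in dKO with vehicle and AICAR.

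Atic, whose product converts ZMP to IMP, had the smallest span between MEF group means of the 9 genes. Its leading probe set read 12.06, 12.19, 12.09 and 12.02 in WT with vehicle and 12.10, 12.11, 12.10 and 12.10 with AICAR. In dKO it read 12.08, 12.05, 12.07 and 12.10 with vehicle and 12.15, 12.04, 12.05 and 11.99 with AICAR. Both pairs of groups overlapped, the differences were 0.01 ± 0.03 in WT (adjusted p = 0.807; 95% interval -0.05 to 0.08) and -0.02 in dKO (adjusted p = 0.766; 95% interval -0.08 to 0.05), and the 6 group means spanned 0.05. The second probe set, 1452811_at, rose in WT MEFs, from 8.80, 9.03, 8.90 and 8.85 to 9.04, 9.11, 9.01 and 9.13, with overlap of the groups (0.18 ± 0.05; adjusted p = 0.00534). In hepatocytes neither Atic probe set was called, and the means of the leading one ran from 11.20 to 11.40 over the 6 groups.

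Impdh1, which encodes an enzyme of the branch from IMP to GMP, was not called in any comparison. Its MEF arrays lay between 9.15 and 9.30 in all 6 groups, and the group means spanned 0.08. In hepatocytes the group means lay between 8.31 and 8.39, again a span of 0.08, while the preparations of a group differed by up to the 8.51 and 8.17 of WT with vehicle.

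**Figure D4:**
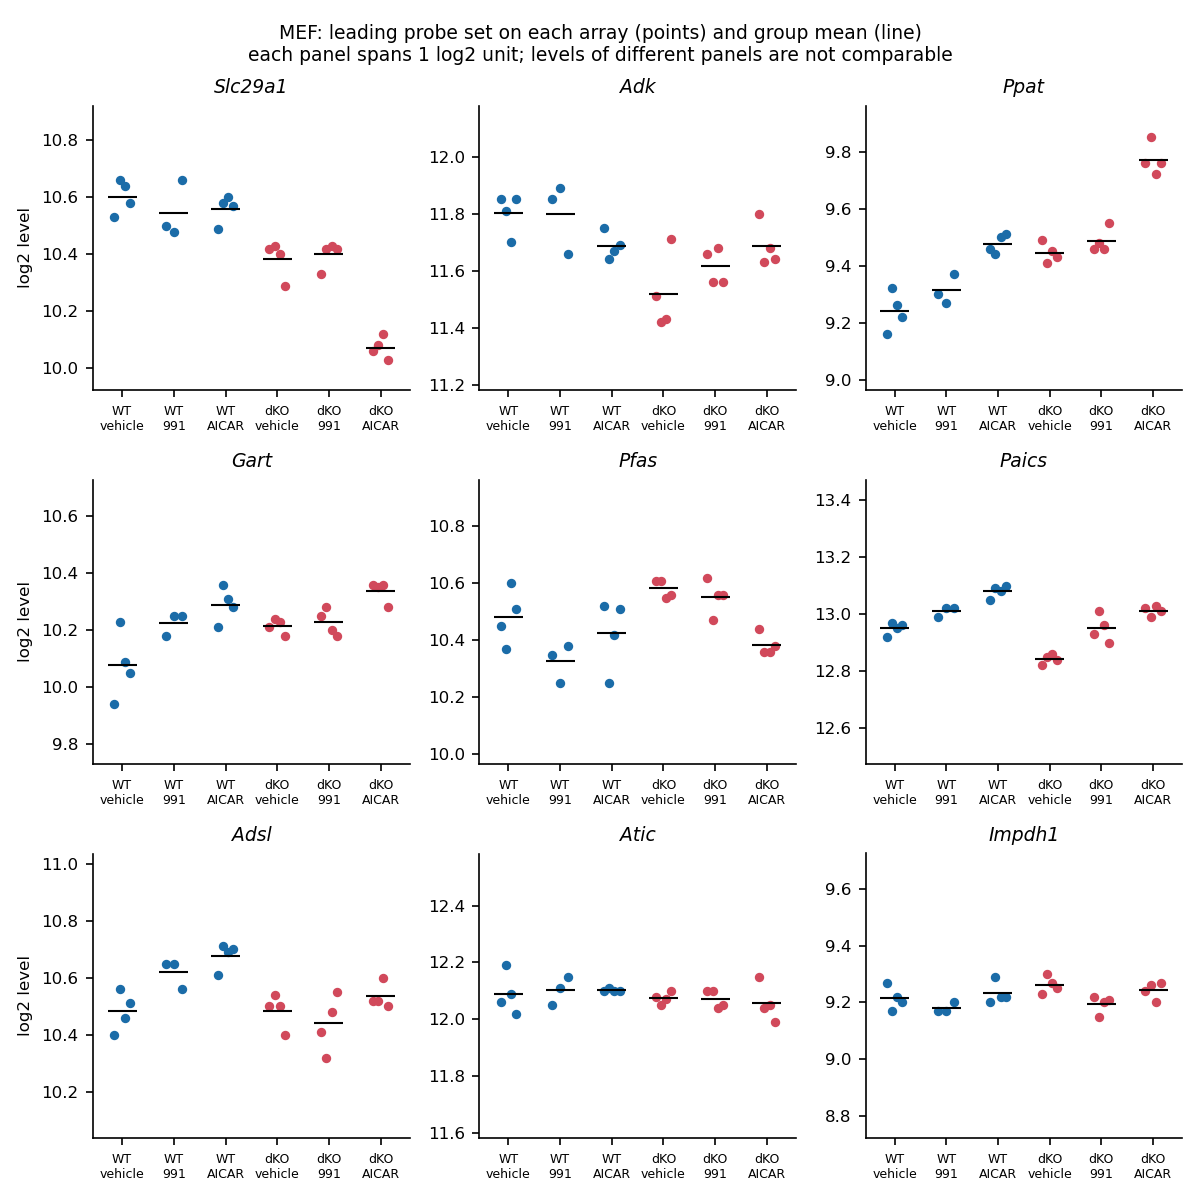
Log2 levels (vertical axis, 1 log2 unit in each panel) of the leading probe set of the 9 genes on each of the 23 MEF arrays (points, WT in blue, dKO in red), with a line at each group's mean. Ppat is highest in dKO with AICAR (mean 9.77), Slc29a1 is lowest there (10.07), and Atic and Impdh1 stay within spans of 0.05 and 0.08 between group means.

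In the order of the 6 group means, Ppat spanned 0.54 in MEFs, from WT with vehicle (9.24 ± 0.07, SD, n = 4 arrays) to dKO with AICAR (9.77 ± 0.06), and 3 of the 5 neighbouring steps exceeded the larger SD. Slc29a1 spanned 0.53, from dKO with AICAR (10.07 ± 0.04) to WT with vehicle (10.60 ± 0.06), with 2 such steps. Paics spanned 0.24 with 3 such steps and Adsl 0.24 with 2, whereas Adk (0.28) and Gart (0.26) had 1 each. Pfas (0.26), Impdh1 and Atic had 0, so no neighbours in their orders differed beyond the spread of the arrays. In hepatocytes Pfas spanned 0.66, from WT with AICAR (8.92 ± 0.21, SD, n = 2 preparations) to dKO with vehicle (9.58 ± 0.12), and the step between both AICAR groups and the other 4 groups was the only one above the SD. Slc29a1 spanned 0.48 with 1 such step, below both AICAR groups, and the other 7 genes had 0.

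The AMPK activator 991 called fewer of the genes. In WT MEFs Gart and Adsl rose and Pfas fell, 3 of 9 against 16.9% of all genes, with a median of 0.01 against -0.0. Gart read 10.18, 10.25 and 10.25 with 991 (0.15 ± 0.05; adjusted p = 0.0319) and Adsl 10.65, 10.65 and 10.56 (0.14 ± 0.05; adjusted p = 0.0459). Pfas read 10.35, 10.25 and 10.38 and fell by 0.16 on the log2 scale (SE 0.05; adjusted p = 0.048). The 991 arrays of Gart and Pfas overlapped the vehicle arrays given above, and those of Adsl met them at 10.56. None of the 3 calls survived all settings. The count was 0 without WT vehicle replicate 1, 3 or 4 or WT 991 replicate 2 or 3, and 1 without dKO vehicle replicate 1, 2 or 3, dKO AICAR replicate 1 or 2, or WT AICAR replicate 3. Over the alternatives the adjusted p ranged from 0.00169 to 0.546 for Gart, from 0.0183 to 0.889 for Adsl and from 0.0122 to 0.45 for Pfas. The 0.546 was that of the mean of the Gart probe sets (0.04). Gart 1424435_a_at averaged 9.87 with 991 and 9.73 with vehicle, 1424436_at 9.57 and 9.59, and 1441911_x_at 5.74 and 5.87, none of them called.

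In dKO MEFs 991 called only Paics among the 9 (2.48% of all genes), at 12.93, 13.01, 12.96 and 12.90 against the vehicle arrays of 12.82 to 12.86. These groups did not overlap and the rise of this leading probe set was 0.11 ± 0.02 (adjusted p = 0.00579; range over the alternatives 0.00287 to 0.38). Paics 1423564_a_at averaged 12.27 with 991 and 12.28 with vehicle, and 1436298_x_at 9.89 and 9.70, neither called. The Paics call was lost with the mean of its probe sets (0.09; adjusted p = 0.38), under quantile normalization and without the trend. In WT MEFs the Paics difference after 991 was 0.06 (adjusted p = 0.0919). For none of the 9 genes did the effect of 991 differ between the genotypes by limma (3.9% of all genes called), with 2 at an unadjusted p under 0.05, Gart and Adsl. That count was 1 without dKO 991 replicate 4 (Adsl) or WT vehicle replicate 2 (Gart), and none of the 22 probe sets was called (2.9% of all probe sets). Among all 22 probe sets, 991 called 4 in WT MEFs (13.0% of all probe sets) and 1 in dKO (1.78%), against 9 in WT (31.7%) and 12 in dKO (37.8%) for AICAR.

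In hepatocytes 991 called none of the 9 genes in either genotype. In WT 5.01% of all genes were called, and 2 of the 9, Gart and Adsl, had an unadjusted p under 0.05 with differences of -0.15 (adjusted p = 0.175) and -0.13 (adjusted p = 0.202). The median of the 9 was -0.08 against 0.03 for all genes. In dKO 1 gene of 18193 was called (0.0055%), and 0 of the 9 had an unadjusted p under 0.05. None of the 22 probe sets was called there (0.00666% of all probe sets). Neither the effect of AICAR (0.572% of all genes) nor that of 991 (0.247%) differed between the genotypes for any of the 9 by limma, with 1 gene, Adk, at an unadjusted p under 0.05 for AICAR (-0.30; adjusted p = 0.119; 95% interval -0.49 to -0.11) and 0 for 991. None of the 22 probe sets was called for either difference (2.52% and 0.189% of all probe sets). Without WT preparation 1 the Adk difference was called, so that 1 of the 9 was. Of the 22 probe sets 1 was called after 991, Ppat 1428543_at in WT (-0.30 ± 0.07; adjusted p = 0.0496), against 4.09% of all probe sets. It was lost without WT preparation 2 or either dKO preparation, with an adjusted p from 6.57e-08 to 0.601 over the alternatives.

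AICAR and 991 were also compared directly in WT cells. In MEFs Ppat (0.16; adjusted p = 0.00489; 95% interval 0.07 to 0.25) and Paics (0.07 ± 0.02; adjusted p = 0.0241; 95% interval 0.02 to 0.12) were higher with AICAR than with 991, 2 of 9 against 27.0% of all genes. Of the 22 probe sets 7 were called there, against 24.5% of all probe sets. The Ppat call was of the leading probe set and was lost with the mean of its probe sets (0.07; adjusted p = 0.269). Its second probe set, 1428543_at, was not called and averaged 9.01 with AICAR and 9.03 with 991. The Paics call was lost without WT 991 replicate 2 (0.06; adjusted p = 0.124), WT AICAR replicate 2 (0.07; adjusted p = 0.0572) or WT AICAR replicate 4 (0.06; adjusted p = 0.0742), and its adjusted p over the alternatives ranged from 0.0102 to 0.821. In hepatocytes Pfas was lower with AICAR than with 991 (-0.51 ± 0.07; adjusted p = 0.000223) and Slc29a1 was higher (0.43 ± 0.10; adjusted p = 0.0106), 2 of 9 against 18.6% of all genes. Of the 22 probe sets 4 were called there, against 19.5% of all probe sets. The Pfas arrays with 991 ranged from 9.32 to 9.56 and did not overlap those with AICAR, and the Slc29a1 arrays with 991 ranged from 8.98 to 9.18 and did. Without WT preparation 1 the Slc29a1 difference was 0.20 and not called (adjusted p = 0.309; range over the alternatives 1.47e-11 to 0.309).

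With vehicle, dKO MEFs differed from WT MEFs in 5 of the 9 genes, 2 higher and 3 lower, where 46.5% of all genes were called, and in 12 of the 22 probe sets, where 40.9% of all were. Ppat was higher in dKO by 0.20 ± 0.04 (adjusted p = 7.49e-05) and Gart by 0.14 ± 0.04 (adjusted p = 0.0088). Adk was lower by 0.28 (-0.28 ± 0.05; adjusted p = 3.5e-05), Slc29a1 by 0.21 (-0.21 ± 0.04; adjusted p = 5.06e-05) and Paics by 0.11 (-0.11 ± 0.02; adjusted p = 0.000119). The genotypes overlapped in Adk and Gart and not in Slc29a1, Paics and Ppat. The Gart call was lost without WT vehicle replicate 1 (0.10; adjusted p = 0.0721; range over the alternatives 0.000188 to 0.0721). The second Ppat probe set went the other way (-0.45 ± 0.05; adjusted p = 1.95e-08), and with all probe sets averaged the Ppat difference was -0.04 (adjusted p = 0.43; range over the alternatives 2.04e-05 to 0.43). Of 10 fibroblast markers 7 were lower in dKO with a median of -1.12, their mean per array running from 7.50 to 7.56 against 8.87 to 8.97 in WT, and 5 of the 10 were below the median level of the array. All 4 cholangiocyte markers were also lower in dKO, with a median of -0.64 and a mean per array from 6.60 to 6.74 against 7.28 to 7.35 in WT. The part of both lists in the genotype differences was not tested, and with technical replicates alone a difference between genotypes and one between cell cultures cannot be told apart. In hepatocytes 0 of the 9 genes and 0 of all 18193 (0.0%) were called by limma between dKO and WT, with 1 of the 9, Adk (-0.23; adjusted p = 0.894), at an unadjusted p under 0.05. Of 10 Kupffer cell and macrophage markers 7 had such a p there (median -0.43, dKO minus WT). Their mean per array ran from 7.80 to 8.09 in dKO and from 8.17 to 8.72 in WT. Of 8 endothelial markers 1 had such a p (median 0.1), and no marker of the other lists had one. The part of these markers in the hepatocyte comparison was not tested.

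Between the cell types the levels are given as a description, since the sources used here do not state if both sets of arrays were normalized in 1 run. With vehicle in WT, the leading Adk probe set was higher in hepatocytes (12.95) than in MEFs (11.80), a difference of 1.14, and 1416319_at differed in the same direction by 1.44. Of the other Adk probe sets, 1449641_at (1.98), 1446068_at (0.70) and 1421767_at (0.48) were higher in hepatocytes too, whereas 1446675_at was lower (-1.28, at 4.89 against 6.16). The leading probe sets of the other 8 genes were lower in hepatocytes, Slc29a1 by the most (-1.57) and Gart by the least (-0.37).

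The genes that feed or drain the pathway were followed in MEFs after AICAR, where 34.2% of all genes were called in WT and 39.8% in dKO. Of 10 genes of ribose phosphate and one-carbon supply, 2 rose and 3 fell in WT (median 0.02) and 1 rose and 2 fell in dKO (median 0.04), beside medians of -0.01 and -0.02 for all genes. Prps1l3, read by a probe set that matches several genes' transcripts and named for a phosphoribosyl pyrophosphate synthetase, rose by 0.36 and 0.50, and Aldh1l2, a mitochondrial formyltetrahydrofolate dehydrogenase, differed by -0.32 and -0.13, both falls called. Of 12 genes of the AMP and GMP branches, 4 rose and 3 fell in WT (median 0.04), and 3 rose and 3 fell in dKO (median 0.04). The AMP deaminase Ampd3 differed by -0.64 ± 0.11 and -0.66 ± 0.11, and Gmps, the GMP synthase, rose by 0.06 and 0.17. Of 7 salvage genes 1 rose and 1 fell in WT (median 0.0), and 2 rose and 2 fell in dKO (median -0.02). Mtap, which frees adenine from methylthioadenosine, differed by -0.43 ± 0.03 in WT and by -0.49 ± 0.03 in dKO. Of 9 breakdown genes 2 rose and 1 fell in WT (median -0.01), and 1 rose and 1 fell in dKO (median -0.08). Ada, adenosine deaminase, rose by 0.24 and 0.30, and the nucleotidase Nt5c2 differed by -0.29 and -0.24, called in both. Of these 4 lists the shares called were above that of all genes in WT for supply (5 of 10) and the branches (7 of 12) and below or near it for salvage (2 of 7) and breakdown (3 of 9), and in dKO above it for the branches (6 of 12) and salvage (4 of 7) and below it for supply (3 of 10) and breakdown (2 of 9).

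Of 4 other nucleoside carriers 3 fell in MEFs of both genotypes and none rose, with a median of -0.3 in each, beside 34.2% (WT) and 39.8% (dKO) of all genes called. Slc29a2, which encodes the second equilibrative carrier ENT2, fell by 0.35 on the log2 scale in WT (SE 0.06; adjusted p = 3.11e-05) and by 0.96 in dKO (SE 0.06; adjusted p = 5.34e-14). The effects differed by 0.61 ± 0.09 (WT minus dKO; adjusted p = 1.14e-05), the same direction as for Slc29a1. Slc29a3 differed by -0.25 and -0.38 and Slc29a4 by -0.35 and -0.22, each called in both genotypes. In hepatocytes none of the 4 was called in WT by limma, with 0 at an unadjusted p under 0.05 (median 0.02), and Slc29a3 fell in dKO by 0.42 on the log2 scale (SE 0.10; adjusted p = 0.0121; list median -0.12).

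In hepatocytes, where AICAR called 16.5% of all genes in WT and 18.0% in dKO, 3 of the 10 supply genes rose and 1 fell in WT (median 0.03), and 2 rose and 0 fell in dKO (median 0.02), beside 0.04 for all genes in each genotype. Aldh1l1, the cytosolic formyltetrahydrofolate dehydrogenase, rose by 0.56 ± 0.09 and 0.54 ± 0.09, and Shmt2, the mitochondrial serine hydroxymethyltransferase, by 0.48 ± 0.06 and 0.62 ± 0.06. Of the 12 branch genes 2 rose and 4 fell in WT (median -0.12), and 3 rose and 2 fell in dKO (median -0.05). Ampd1, an AMP deaminase, rose by 1.67 ± 0.15 in dKO (adjusted p = 1.43e-05), and the effects of the genotypes differed by -1.41 ± 0.22 (WT minus dKO; adjusted p = 0.00446). Of the 7 salvage genes 1 rose and 1 fell in WT (median -0.06), and 1 rose and 2 fell in dKO (median 0.04), with Mtap lower in both (-0.28 and -0.19). Of the 9 breakdown genes 1 rose and 2 fell in WT (median -0.0), and 3 rose and 1 fell in dKO (median 0.02). Uox, urate oxidase, rose by 0.26 ± 0.03 and 0.27 ± 0.03, and the ecto-nucleotidase Nt5e differed by -0.22 and -0.35, called in both.

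The pyrimidine enzymes were counted for comparison. In MEFs 3 of 12 rose and 2 fell after AICAR in WT (median -0.0; 34.2% of all genes called), and 3 rose and 1 fell in dKO (median -0.03; 39.8%). In hepatocytes 2 rose and 3 fell in WT (median -0.05; 16.5%), and 1 rose and 3 fell in dKO (median 0.0; 18.0%). Rrm2, a ribonucleotide reductase subunit, rose by 1.06 ± 0.24 in hepatocytes of each genotype, while Umps and Cad, enzymes of pyrimidine synthesis, were lower (Umps -0.23 and -0.24, Cad -0.23 and -0.19). After 991 in WT MEFs, where 16.9% of all genes were called, the calls were 0 of 10 supply genes (3 at an unadjusted p under 0.05 by limma), 2 higher and 3 lower of 12 branch genes, 1 and 1 of 7 salvage genes, 1 and 0 of 9 breakdown genes, 1 and 1 of 4 carriers and 1 and 0 of 12 pyrimidine genes. In WT hepatocytes, where 5.01% of all genes were called, 991 called 0 supply, branch, salvage and carrier genes by limma (3, 3, 5 and 0 at an unadjusted p under 0.05), 1 higher and 2 lower of 9 breakdown genes and 0 higher and 2 lower of 12 pyrimidine genes. Among the breakdown genes Xdh, xanthine dehydrogenase, rose by 0.35 ± 0.05 (adjusted p = 0.00272) with 991.

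The genes whose course was most like that of the 3 genes that handle AICAR were named by Pearson correlation of leading probe sets. It was taken over 23 MEF arrays and over 12 hepatocyte preparation means, among genes at or above the median level. For Slc29a1 they were Fam98a, Tspan4 and Six4 (0.95 each) in MEFs and Gm11827, Zmat1 and Dnaja3 (0.97 each) in hepatocytes. For the Adk probe set 1438292_x_at they were Ybx3 (0.92), Ipo4 (0.91) and Dctn6 (0.90) in MEFs, and Serinc3 (0.95), Rab2a (0.93) and Ascc3 (0.93) in hepatocytes. Over single arrays that probe set correlated with the other Adk probe sets at only -0.22 to 0.57 in MEFs and 0.05 to 0.69 in hepatocytes. For Atic the nearest in MEFs reached only 0.67 (Nr2f6), 0.65 (Usp34) and 0.63 (Cct6a), and in hepatocytes they were Ints1 (0.98), Gart (0.98) and Aven (0.97). The candidates numbered 10846 and 11436, and the arrays share groups and preparations.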

How the data were processed

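The arrays were processed by the authors with RMA and Partek, per the submitters' processing notes, whose versions are not given in the sources used here, and they deposited 1 log2 intensity for each probe set and array. The labels name 1 array of each cell type that was excluded as an outlier (MEF WT with 991, technical replicate 1; hepatocyte dKO with vehicle, technical replicate 4 of preparation 1). Of 45101 probe sets 64 controls were left out, and of the other 45037, 34945 had 1 gene symbol, 932 several and 9160 none, and 34741 had an Entrez identifier found in RefSeq. No filter on dim probe sets was applied.

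All probe sets were fitted within a cell type by linear models (limma 3.58.1, R 4.3.3, with eBayes and an intensity trend), with Benjamini-Hochberg adjustment over 45037 probe sets and a threshold of 0.05. MEFs had a mean per group (17 residual degrees of freedom). Hepatocyte technical replicates were averaged to 12 preparation means with preparation as a block (4 residual degrees of freedom; 2 for genotype with vehicle). The labels give the shared preparation, and the deviations of its treatments correlated at 0.358 to 0.591 in WT and 0.418 to 0.783 in dKO.

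The genes, the lists and the tests were chosen with earlier results of these data known. All probe sets of the 9 genes are described, and up to 4 called genes with the largest change may be named per list and comparison. Sequences came from RefSeq. Tables and plots were made with Python 3.11.15, pandas 2.3.3, numpy 2.4.6 and matplotlib 3.10.9. Alternatives were quantile normalization, only probe sets at or above the median level, 1 probe set per gene, the mean of a gene's probe sets, no trend, the replicate or preparation block, every array as a sample, and leaving out each array or preparation. A leading probe set without an x suffix and array width as a covariate were chosen after seeing the data.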

Additional observations from a re-analysis of the deposited data

Results flagged for a closer look

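Among 153 groups of 4 or 5 arrays checked for an array far from the rest, 7 had one, and chance gives about 1 in 20. In MEFs these were Atic in WT with AICAR (technical replicate 2 at 12.11, the others at 12.10), Adsl in WT with AICAR (replicate 1 at 10.61, the others from 10.69 to 10.71), Slc29a1 in dKO with 991 (replicate 1 at 10.33, the others from 10.42 to 10.43) and Gart in dKO with AICAR (replicate 4 at 10.28, the others from 10.35 to 10.36). In hepatocytes they were Pfas in WT with 991, preparation 2 (replicate 2 at 9.33, the others from 9.49 to 9.53), Paics in dKO with 991, preparation 2 (replicate 2 at 11.91, the highest of the others at 12.03), and Pfas in dKO with AICAR, preparation 2 (replicate 1 at 9.12, the others from 8.86 to 8.90).

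The effect of AICAR differed between the genotypes in MEFs for the leading probe sets of Adk (-0.28, WT minus dKO) and Slc29a1 (0.28). The Adk call was lost with the probe set without an x suffix (-0.06; adjusted p = 0.606 by limma). It was also lost with the mean of its probe sets (-0.13; adjusted p = 0.164) and without the trend (-0.28; adjusted p = 0.0588). Between the cell types the mean changes of some genes had opposite signs, at different doses, and these differences were not tested. Given as hepatocyte minus MEF, they were for 991 in WT -0.13 for Paics, -0.20 for Ppat, -0.30 for Gart and -0.27 for Adsl, and for 991 in dKO -0.12 for Paics and -0.08 for Ppat. For AICAR they were -0.37 for Ppat in WT and, in dKO, -0.35 for Ppat, -0.27 for Gart, -0.11 for Adsl and 0.60 for Slc29a1 (-0.31 in MEFs and 0.29 in hepatocytes).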

How the results depend on the processing

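The counts of the 9 genes called in MEFs after AICAR stayed at 4 to 5 in WT and 4 to 6 in dKO when each array was left out (4 without dKO AICAR replicate 1), and were 5 and 4 under quantile normalization. Over all alternatives for single called genes, 704 of 785 values kept their direction and call, 79 lost the call and 2 reversed, both with the mean of a gene's probe sets: Paics after AICAR in WT MEFs (-0.01) and Ppat in dKO against WT MEFs (-0.04). Many of these values came from leaving out a single MEF array. An array outside the groups compared cannot change the difference, and some settings reuse the same values for a gene. The share kept is therefore no measure of stability. The count after 991 in WT MEFs, 3, was 1 under quantile normalization, 0 without the trend and 0 with the interquartile range of each array in the model (an alternative added after the data were seen), and 0 to 3 over arrays left out. After 991 in dKO MEFs the count of 1 was 0 under quantile normalization, the mean of probe sets or no trend. The count of genes with an AICAR effect that differed between genotypes in MEFs, 2, was 1 with the leading probe set without an x suffix (chosen after seeing the data), with the mean of probe sets or without the trend, 3 (Adsl added) under quantile normalization and with the interquartile range in the model, and 2 to 3 over arrays left out. For 991 it was 0 to 1. AICAR against 991 in MEFs, 2, was 1 without the trend, 3 with the interquartile range in the model and 1 to 3 over arrays left out, and dKO against WT gave 4 to 6. The technical replicate numbers did not pair the MEF arrays (median r = 0.005, from -0.366 to 0.364 over 55 pairs, against -0.016 for other numbers). With the replicate block, the count for 991 in WT MEFs was 1, and the other MEF counts were 4 and 6 for AICAR in WT and dKO, 1 for 991 in dKO, 2 and 0 for the genotype differences in effect, 2 for AICAR against 991 and 5 for dKO against WT. In hepatocytes, without the preparation block, AICAR in WT gave 0 in place of 2, AICAR in dKO 1 in place of 2 and AICAR against 991 1 in place of 2. Without the trend AICAR in dKO gave 1. Quantile normalization gave 3 for AICAR in dKO (Gart added) and 3 for AICAR against 991 (Paics added), and the mean of probe sets gave 3 for AICAR in WT and 3 for AICAR against 991. With every array as a sample, which treats technical replicates as independent, AICAR in dKO gave 5, 991 in WT 5, AICAR against 991 5, and the genotype differences in the effects of AICAR and 991 and dKO against WT 1 each. Leaving out a preparation gave 1 to 3 for AICAR in dKO (1 without either dKO preparation, 3 without either WT preparation, when Slc29a1 was added), 0 to 1 for the AICAR genotype difference, 1 to 2 for AICAR against 991 and 2 to 2 for AICAR in WT, where Adk replaced Slc29a1 without WT preparation 1.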
